A study of Mus musculus with 28 samples.

Results

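The DNA replication machinery was followed here through 42 genes listed by function, from the proteins that mark replication origins to the enzymes that copy, seal and supply the new strand. A gene was measured where a probe carried its symbol through a RefSeq accession, and the probe with the highest mean signal stood for it. Of the 42 genes, 37 had such a probe, among the 38726 features of the array, 13018 of which carried a gene symbol. Cdc6, Gins1, Gins2, Pcna and Prim2 were not matched to a probe and are not analysed here. Of the 37 genes, 32 were well above background on all 28 arrays. Mcm3, Orc5, Rfc2 and Gins3 were so on 27 arrays, and Pola2, the second subunit of the primase-bound polymerase, on 18.

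RNA from mouse germ cells, cultured stem cells and testis had been hybridised to 28 single-colour Agilent arrays, 2 for each of 14 groups. Primordial germ cells (PGCs), the embryonic precursors of eggs and sperm, were taken from male and female embryos at embryonic days 10.5, 13.5 and 17.5 (E10.5, E13.5, E17.5) of the cross BDF1 x TgN(deGFP)18Imeg. Spermatogonia and oogonia came from the cross BDF1 x Tg(Mvh-Venus)1Rbrc, and the labels give no age for them. Male and female embryonic germ (EG) cells are pluripotent lines grown out of PGCs. Their strain label is Rb(X.2)2Ad X 129/Sv and their source label names PGCs of day 12.5. Embryonic stem (ES) cells were the male line TMA5, an F1 hybrid of TgN (deGFP)20Imeg and MSM/Ms, and the female line no5 of 129/Sv, so that each sex was 1 line of its own strain. Germline stem (GS) cells, cultured spermatogonial stem cells, were DBA/2 and male, and the adult testis was C57BL/6J. The deGFP and Mvh-Venus transgenes are fluorescent reporters. The labels give deGFP for PGCs and male ES cells, Mvh-Venus for spermatogonia and oogonia, and neither for EG cells, female ES cells, GS cells and testis. The labels do not say how cells were isolated, whether cultures held feeder cells, or whether both arrays of a group stand for separate animals or cultures. The p-values then measure only the spread between the samples at hand, and part of it may be technical.

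Replication starts at origins bound by the origin recognition complex (ORC), on which Cdc6 and Cdt1 load the ring-shaped MCM helicase in G1 phase, a step called licensing that geminin (Gmnn) blocks by holding Cdt1. In S phase Cdc45 and the GINS complex join MCM to form the active helicase, polymerase alpha with primase lays down primers, replication factor C (RFC) loads the sliding clamp Pcna, and polymerases delta and epsilon extend the strands while RPA coats single-stranded DNA and Fen1 and Lig1 finish the lagging strand. In the mouse, PGCs proliferate until about the time the gonads take on their sex, after which female germ cells enter meiosis with a last round of replication and male germ cells stop in mitotic arrest until birth.

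Many genes of this set are textbook targets of the E2F transcription factors, so their promoters are shown for the letters that E2F binds. RefSeq promoters (GRCm38.p6) were given for 34 of the 42 genes. In the 250 bases before the start, at least 1 of the 4 words TTTGGCGC, TTTCCCGC, TTTCGCGC and TTTGCCGC stood on either strand in 8 of 34 promoters (23.5%), against 583 of 27025 promoters of all genes (2.16%). The 8 genes were Orc1, Orc3, Cdc6, Mcm5, Mcm6, Mcm7, Gins3 and Rfc3. The word CCAAT, on either strand, stood in 22 of 34 (64.7%), against 37.5% of all promoters, and TTTGAA, part of the CHR element of mitotic genes, in 5 of 34 (14.7%), against 18.3%. A match describes letters and is not a binding site, and no binding was measured. The last 170 bases before the start are printed 5′ to 3′ on the gene's strand for 3 helicase genes and for 2 origin genes whose levels are followed through the results. Capitals mark the E2F words on either strand.
Mcm6 (chr1:128359706-128359875, minus strand): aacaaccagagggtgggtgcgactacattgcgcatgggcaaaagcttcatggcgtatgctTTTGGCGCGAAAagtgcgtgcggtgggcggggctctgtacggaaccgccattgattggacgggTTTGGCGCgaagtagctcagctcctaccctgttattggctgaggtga
Mcm5 (chr8:75109339-75109508, plus strand): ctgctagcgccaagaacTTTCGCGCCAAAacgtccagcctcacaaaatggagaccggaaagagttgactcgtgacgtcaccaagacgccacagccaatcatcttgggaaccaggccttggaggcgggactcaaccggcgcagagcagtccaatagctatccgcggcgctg
Mcm7 (chr5:138171884-138172053, minus strand): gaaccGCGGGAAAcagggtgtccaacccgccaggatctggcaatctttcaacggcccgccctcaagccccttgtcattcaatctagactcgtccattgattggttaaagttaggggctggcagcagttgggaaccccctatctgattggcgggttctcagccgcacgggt
Orc1 (chr4:108579284-108579453, plus strand): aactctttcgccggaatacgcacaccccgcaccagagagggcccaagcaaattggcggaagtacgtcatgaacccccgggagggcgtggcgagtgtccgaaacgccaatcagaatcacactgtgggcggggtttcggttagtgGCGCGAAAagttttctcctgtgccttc
Orc3 (chr4:34614943-34615112, minus strand): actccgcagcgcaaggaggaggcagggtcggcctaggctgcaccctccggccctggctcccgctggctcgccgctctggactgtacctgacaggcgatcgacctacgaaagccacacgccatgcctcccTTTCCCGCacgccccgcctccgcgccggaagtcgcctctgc
Mcm6 and Mcm5 each hold a stretch where words on both strands overlap, and the printed stretch of Mcm7, Orc1 and Orc3 holds a single word each. Mcm7 and Orc3, which both carry a word, differed between the sexes in opposite directions at E17.5, as given in the results on sex.

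A level is given throughout as log2 of the processed signal minus the 75th percentile of the same array, taken over 7227 probes with a signal well above background everywhere. At a level of 0 a gene equals that percentile, and 1 unit is a doubling. Levels of different genes come from different probes and are not set against each other. Between 17.8% and 76.7% of probes per array were well above background, and no spot was saturated. The 5 germ cell markers were well above background on both arrays of every group but the testis, where 4 of 5 were. That flag does not mean alike levels. Dazl stood at -5.92 in male EG cells and 2.12 in oogonia, and Pou5f1 at 3.95 in male EG cells and -0.87 in oogonia. GS array 1 read lower than GS array 2 for all 37 genes, by a median of 0.87. The E10.5 arrays of both sexes differed by more than 1 for Mcm2, Mcm3, Mcm6, Rfc2 and Pola2. Changes are given with their standard error and the adjusted p of a limma fit over all features tested (Benjamini-Hochberg, threshold 0.05). In a bulk sample, fewer cells of a type and less RNA per cell cannot be told apart.

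Across the 14 groups the set was highest in pluripotent cultures and early PGCs and lowest in testis and in the late germ cells. Each gene's level was taken relative to its own mean over the 14 groups, and the median over the 37 genes was 0.89 in male ES cells, 0.43 in female ES cells, 0.60 in male EG cells and 0.51 in female EG cells. It was 0.50 in male PGCs at E10.5, 0.27 at E13.5, -0.59 at E17.5 and -1.06 in spermatogonia, where 36 of 37 genes lay below their own mean. In the female series it was 0.55 at E10.5, 0.70 at E13.5, -0.25 at E17.5 and -0.70 in oogonia. GS cells had -0.16 and testis -1.21. Testis had the lowest mean for 20 of the 37 genes, while male ES cells had the highest for 15 and female E13.5 PGCs for 10. Cdt1, the licensing factor, covered the widest range of group means (5.67), followed by the thymidylate synthase Tyms (5.30) and the largest ORC subunit Orc1 (4.71), and the clamp loader subunit Rfc4 the narrowest (1.69). Pola2 is left out of this order, since it was well above background on 0 of 2 arrays in oogonia and in spermatogonia. Not all genes followed this order. Testis had the highest levels of all groups for Rfc2 and Rpa1, at -0.39 and -0.05. Female ES cells had the lowest for Rfc4 and Pole, at -0.24 and -1.18. Over the 14 groups, Pearson's r of a gene with the median of the other genes ran from -0.03 for Rfc1 to 0.96 for Mcm5.

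**Figure D1:**
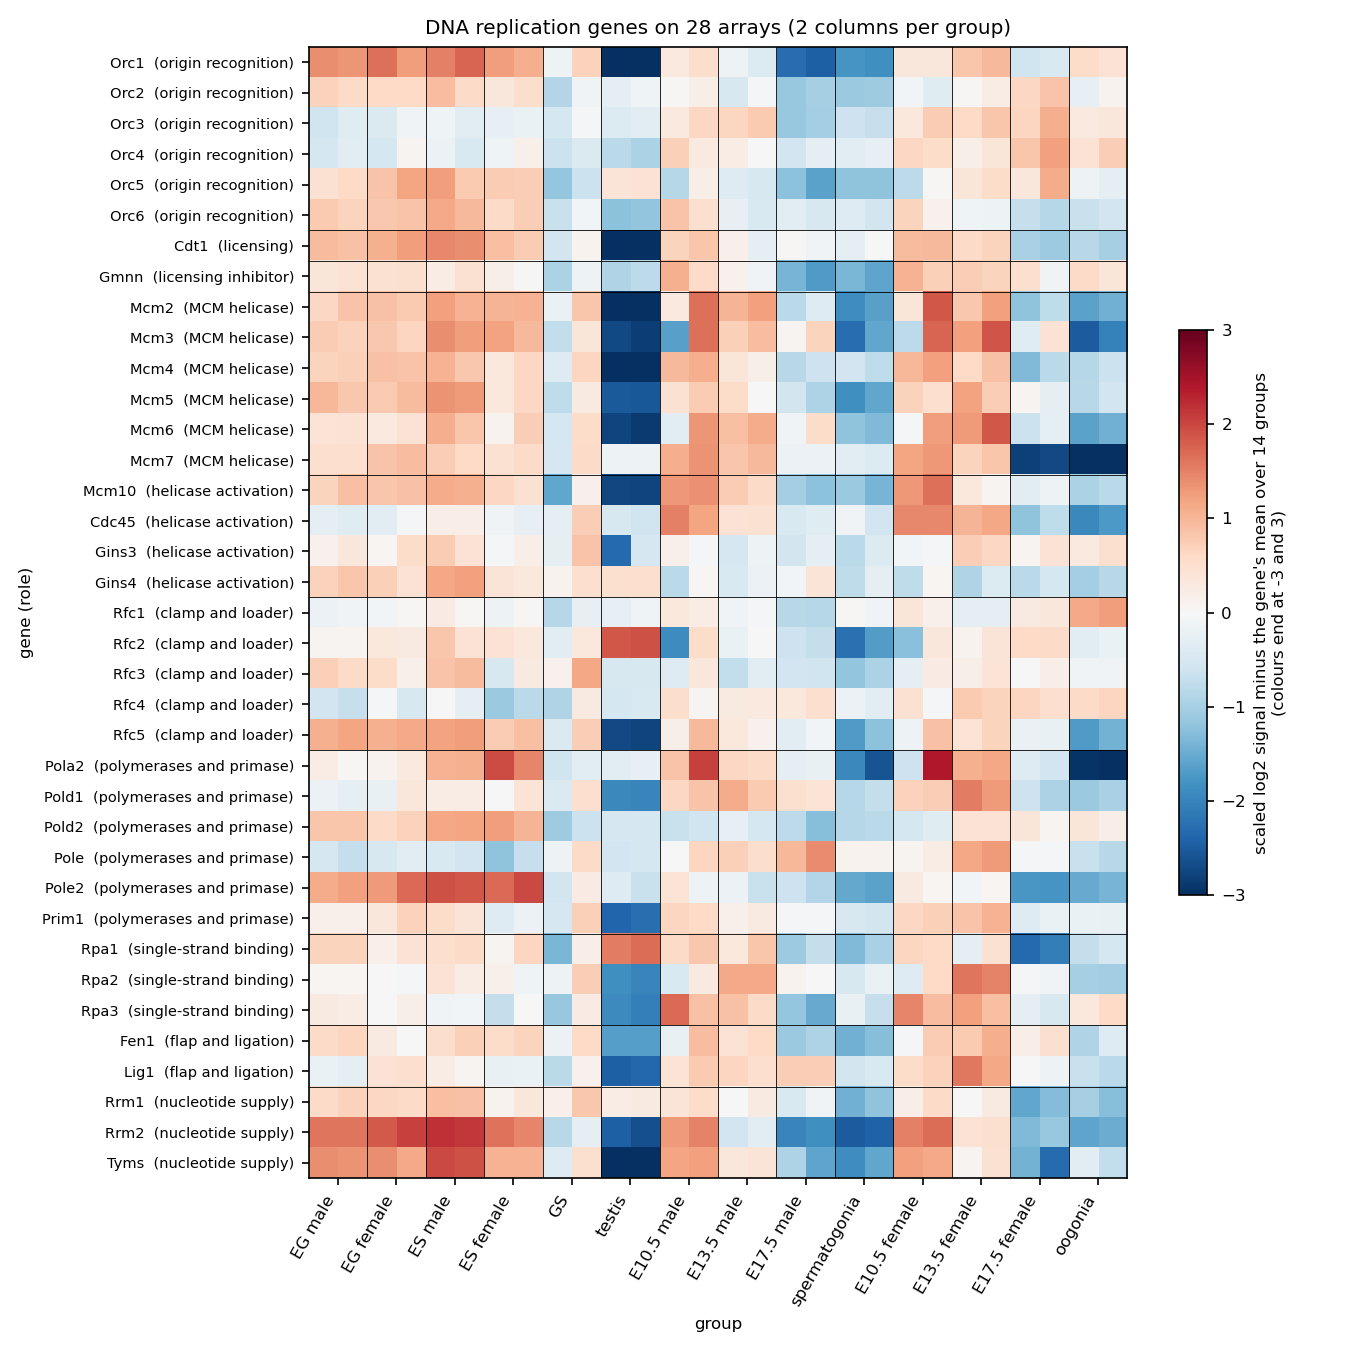
Level of each of the 37 genes (rows, ordered by role) on each of the 28 arrays (columns, by group), as log2 level minus the gene's mean over the 14 groups, with colours ending at -3 and 3. EG and ES cells and early PGCs are mostly above the gene means and testis, spermatogonia and oogonia mostly below, with Rfc2 and Rpa1 high in testis.

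From E10.5 to E13.5, while PGCs settle in the gonad, the changes that passed were spread over several roles. In female PGCs 8 of 37 genes passed the test, 4 higher and 4 lower at E13.5, beside 35% of all 13593 features tested (25.1% higher and 9.95% lower). The median change was 0.17, against 0.39 over all features. In males 9 of 36 passed, 1 higher and 8 lower, beside 27% of all features (17.7% higher and 9.32% lower), with a median of -0.34, against 0.21. The gene with the smallest p in both sexes was Rrm2, the S-phase subunit of ribonucleotide reductase, which makes deoxynucleotides. Rrm2 stood at -1.40 and -1.17 in male PGCs at E13.5, against 0.47 and 0.67 at E10.5, a fall of -1.85 ± 0.18 (adjusted p = 1.59e-06). In female PGCs it stood at -0.39 and -0.33 at E13.5, against 0.70 and 0.86 at E10.5 (-1.14 ± 0.19, adjusted p = 0.000192). The arrays of both stages did not overlap in either sex. Tyms, which makes the thymidine nucleotide, also fell in both sexes, with changes of -0.84 in males and -0.92 in females. The RPA subunit Rpa2 rose in both, by 1.22 ± 0.29 in males (adjusted p = 0.00555) and 1.44 ± 0.30 in females (adjusted p = 0.00141).

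In females the E13.5 level was also higher for Pole, the catalytic subunit of leading-strand polymerase epsilon (1.08 ± 0.25), for Pold2, a subunit of lagging-strand polymerase delta (0.87 ± 0.19), and for Lig1, which joins lagging-strand fragments (0.75 ± 0.24), and lower for Mcm10, which helps start the helicase (-1.28 ± 0.34), and Rfc1 (-0.54 ± 0.18). In males the ORC subunits Orc6 (-1.01 ± 0.20) and Orc1 (-0.69 ± 0.22), Cdt1 (-0.80 ± 0.20), its inhibitor Gmnn (-0.81 ± 0.25), Mcm4 (-0.76 ± 0.26) and Cdc45 (-0.90 ± 0.25) were lower at E13.5. Of these calls, those of Rrm2, Rpa2, Pole and Pold2 in females and of Rrm2 and Orc6 in males held whichever single array was left out. In females Lig1, Rfc1 and Tyms lost theirs without E10.5 array 1 or E13.5 array 1, Mcm10 and Tyms without E10.5 array 2, and Mcm10 and Rfc1 without E13.5 array 2 (adjusted p up to 0.244), and 5 genes passed without E13.5 array 1. In males Gmnn, Mcm4, Cdc45 and Tyms lost theirs without E10.5 array 1, E13.5 array 1 or E13.5 array 2, Orc1 without E10.5 array 1, E10.5 array 2 or E13.5 array 2, Mcm4 and Tyms also without E10.5 array 2, Rpa2 without E10.5 array 1 and Cdt1 without E13.5 array 2 (up to 0.27). The male count was 3 without E10.5 array 1, 5 without E13.5 array 1 and 3 without E13.5 array 2. Scaling each array by all its probes gave 1 higher and 8 lower in females, and quantile normalisation 5 higher and 2 lower.

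Between E13.5 and E17.5 most of the machinery went down in both sexes. In female PGCs 21 of 37 genes were lower and 2 higher at E17.5, beside 40.2% of all features called (17.5% lower and 22.7% higher), and the median change of the 37 genes was -1.27, against 0.11 over all features. In male PGCs 19 of 36 were lower and none higher, beside 48.1% of all features (14.9% lower and 33.2% higher), with a median of -0.78, against 0.50. Relative to the median of all features the shift of the 37 genes was thus -1.38 in females and -1.29 in males. This shift was -1.35 in females and -1.24 in males with quantile normalisation, and -1.32 and -0.79 with normexp correction of the median signal. Scaling by all probes and the deposited log2 values move each array by a constant, so they could not change it. The counts depended on the setting: the deposited log2 values called 5 genes in females and 2 in males, and a fit of only the groups compared called 12 in males. A gene that passed in a single sex is not thereby shown to differ between the sexes, a question with its own test below. The arrays of a sex were scanned on 2 days with both stages on each. 30 of 37 genes were lower on both days in females (medians -1.24 and -1.31) and 30 of 36 in males (-0.75 and -0.78).

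The MCM helicase fell in both sexes, with 5 of its 6 subunits lower in females and 4 in males. Mcm7 showed the largest change of the set in females. It stood at -2.39 and -2.29 in female E17.5 PGCs, against 1.09 and 1.25 at E13.5, an 11.4-fold drop (-3.51 ± 0.24, adjusted p = 2.01e-08). In male E17.5 PGCs Mcm7 stood at 0.25 on both arrays, against 1.25 and 1.39 at E13.5 (-1.07 ± 0.24, adjusted p = 0.00204). Mcm2 was lower by about the same amount in both sexes, at -2.01 ± 0.44 in females and -1.73 ± 0.45 in males, and Mcm4 changed by -1.80 ± 0.26 in females and -0.99 ± 0.26 in males. Mcm6 was at -0.85 and -0.47 in female E17.5 PGCs, against 1.07 and 1.66 at E13.5 (-2.02 ± 0.48, adjusted p = 0.00313). Mcm5 was lower in both sexes (-1.07 ± 0.29 in females and -1.0 ± 0.29 in males), though not whichever array was left out. Its other probes were split. One that was well above background on 28 arrays gave 0.07 in males and -0.01 in females. Another, well above background on 20 arrays, gave -1.13 in males and -2.16 in females. Mcm3 did not pass in females (-1.51 ± 0.80, adjusted p = 0.142).

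The RPA trimer, which coats single-stranded DNA, was lower for all 3 subunits in both sexes. Rpa1 changed by -2.30 ± 0.37 in females and -1.48 ± 0.37 in males, Rpa2 by -1.61 ± 0.30 in females and -1.09 ± 0.30 in males, and Rpa3 by -1.46 ± 0.37 in females and -2.05 ± 0.38 in males. Nucleotide supply was lower for 3 of 3 genes in females and 2 of 3 in males. Tyms changed by -2.13 ± 0.30 in females (adjusted p = 3.57e-05) and -1.60 ± 0.30 in males (adjusted p = 0.000453), and Rrm2 by -1.69 ± 0.19 in females and -1.46 ± 0.19 in males. Rrm1, the partner subunit of Rrm2, fell in females (-1.56 ± 0.23), while its change of -0.41 in males did not pass. Orc1 fell in both sexes. It stood at -2.0 and -1.86 in female E17.5 PGCs, against -0.57 and -0.43 at E13.5 (-1.43 ± 0.22), and at -3.69 and -3.84 in male E17.5 PGCs, against -1.54 and -1.82 at E13.5 (-2.09 ± 0.22, adjusted p = 2.59e-06).

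Of the polymerase and primase genes, 5 of 6 were lower in females and 1 of 5 in males, where it was Pold2 (-0.65 ± 0.19), and the test of the difference between the sexes was passed by 3 (Pole, Pold1 and Pole2). Pold1, the catalytic subunit of polymerase delta, changed by -2.18 ± 0.26 in females (adjusted p = 6.96e-06), and its -0.50 in males did not pass (adjusted p = 0.124). Pole2, an accessory subunit of polymerase epsilon, fell in females (-1.75 ± 0.26), and so did the primase Prim1 (-1.24 ± 0.26, adjusted p = 0.00135). On its brightest probe Pola2 was well above background on 0 of 2 female E17.5 arrays. That probe put it at least 2.28-fold lower there than at E13.5 (adjusted p = 0.0497), while a second probe gave a change of 0. That call was lost when the replicate number was added as a block and when any of the 4 arrays was left out. Cdc45 fell in females (-2.07 ± 0.26) and in males (-0.86 ± 0.26, adjusted p = 0.0129). Some calls rested on single arrays. In females those of Orc6, Pola2 and Rfc1 were lost without any 1 of the 4 arrays (adjusted p from 0.0528 to 0.16), those of Mcm5 and Orc4 without E13.5 array 1 or E17.5 array 2, and that of Rpa3 without E13.5 array 1 (0.0586). In males Orc2 and Cdc45 lost theirs without E17.5 array 1 (adjusted p up to 0.0696), Orc2, Cdc45 and Orc5 without E13.5 array 2 (up to 0.125), Mcm5, Orc5 and Pold2 without E13.5 array 1 (up to 0.108), and Cdc45, Mcm5, Orc5, Pold2 and Rpa2 without E17.5 array 2 (up to 0.189).

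**Figure D2:**
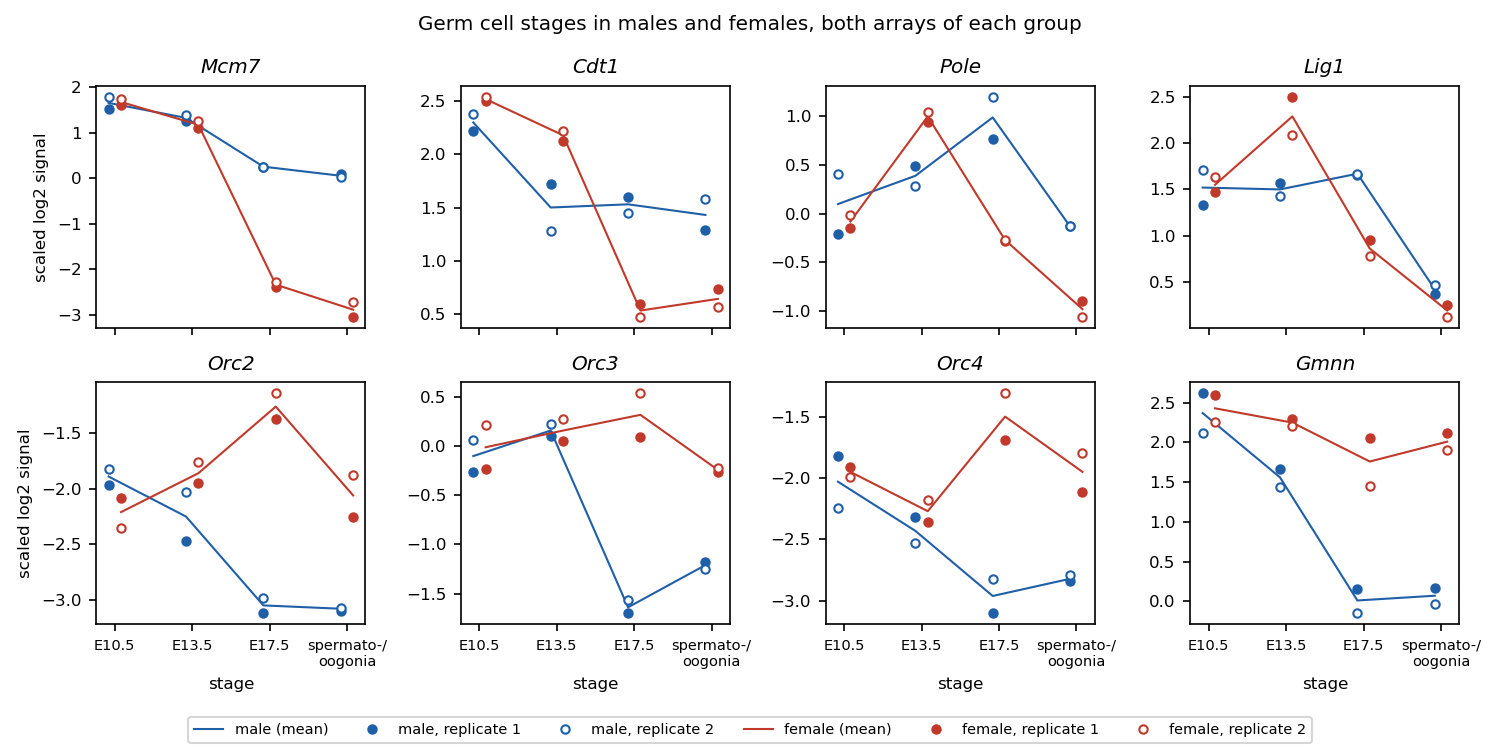
Level of 8 genes on both arrays of each group (points) at E10.5, E13.5, E17.5 and in spermatogonia or oogonia, males in blue and females in red, as log2 signal relative to the array's 75th percentile. Mcm7, Cdt1, Pole and Lig1 are lower in females at E17.5, while Orc2, Orc3, Orc4 and Gmnn are lower in males.

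The change from E13.5 to E17.5 differed between the sexes for 14 of 37 genes, by the test of the male against the female change, beside 32.4% of all features (19.2% with the male change higher and 13.2% with it lower). The count is near that of all features, so it is given for the single genes and not as a result about the set. For 8 genes the male change was above the female one, and for 6 it was below. Among the 8 were polymerase, helicase and ligation genes. Mcm7 had a male minus female change of 2.44 ± 0.35 (adjusted p = 7.13e-05). Pole stood at 0.77 and 1.20 in male E17.5 PGCs, against 0.49 and 0.29 at E13.5, a change of 0.60 that did not pass (adjusted p = 0.06). In female E17.5 PGCs Pole was at -0.28 and -0.27, against 0.94 and 1.05 at E13.5, a fall of -1.27 ± 0.25, so that the changes differed by 1.86 ± 0.36 (adjusted p = 0.000859). Cdt1 was at 1.60 and 1.45 in male E17.5 PGCs, against 1.72 and 1.28 at E13.5, with overlapping arrays. In female E17.5 PGCs Cdt1 was at 0.59 and 0.47, against 2.13 and 2.22 at E13.5 (-1.64 ± 0.21, adjusted p = 1.16e-05), and the difference was 1.67 ± 0.30. For Lig1 the male arrays were at 1.66 and 1.67 at E17.5, against 1.57 and 1.43 at E13.5, and the female arrays at 0.95 and 0.78, against 2.50 and 2.09. The difference of its changes was 1.60 ± 0.34 (adjusted p = 0.00185). Pold1 (1.68 ± 0.38), Pole2 (1.42 ± 0.37), Cdc45 (1.21 ± 0.37) and Rrm1 (1.15 ± 0.32) were the rest of the 8.

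The other 6 genes, lower in the male change, were 3 subunits of ORC, the licensing inhibitor Gmnn, Mcm10 and Rfc1, the large subunit of the clamp loader. Orc3 stood at -1.70 and -1.57 in male E17.5 PGCs, against 0.10 and 0.23 at E13.5, a 3.48-fold drop (-1.80 ± 0.21, adjusted p = 6.19e-06). In females its arrays overlapped between the stages, at 0.09 and 0.54 at E17.5, against 0.05 and 0.28 at E13.5, and the changes differed by -1.95 ± 0.31 (adjusted p = 0.000156). Orc4 had -0.54 in males, which did not pass, and rose by 0.77 ± 0.23 in females (difference -1.31 ± 0.33). Orc2 fell by 0.80 ± 0.24 in males, with 0.60 in females that did not pass (difference -1.39 ± 0.34). Gmnn was at 0.16 and -0.15 in male E17.5 PGCs, against 1.67 and 1.44 at E13.5 (-1.55 ± 0.26). Its female arrays, at 2.06 and 1.45 at E17.5, were both below 2.29 and 2.21 at E13.5 without passing the test, and the difference of -1.06 ± 0.37 passed at an adjusted p of 0.0374. Rfc1 had -0.77 ± 0.18 in males and 0.60 ± 0.18 in females (difference -1.38 ± 0.26). A second Rfc1 probe, which did not follow the first over the groups, gave 0.08 in males and 0.52 in females. The call of Mcm10 was lost without any 1 of the 8 arrays (up to 0.137). Those of Cdc45, Gmnn and Rrm1 were lost without female E13.5 array 2, female E17.5 array 1 or male E17.5 array 2, and that of Gmnn also without array 1 of either sex at E13.5 (up to 0.174). Scaling by all probes gave 5 genes above and 7 below, and the median signal with normexp correction 5 above and 2 below.

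**Figure D3:**
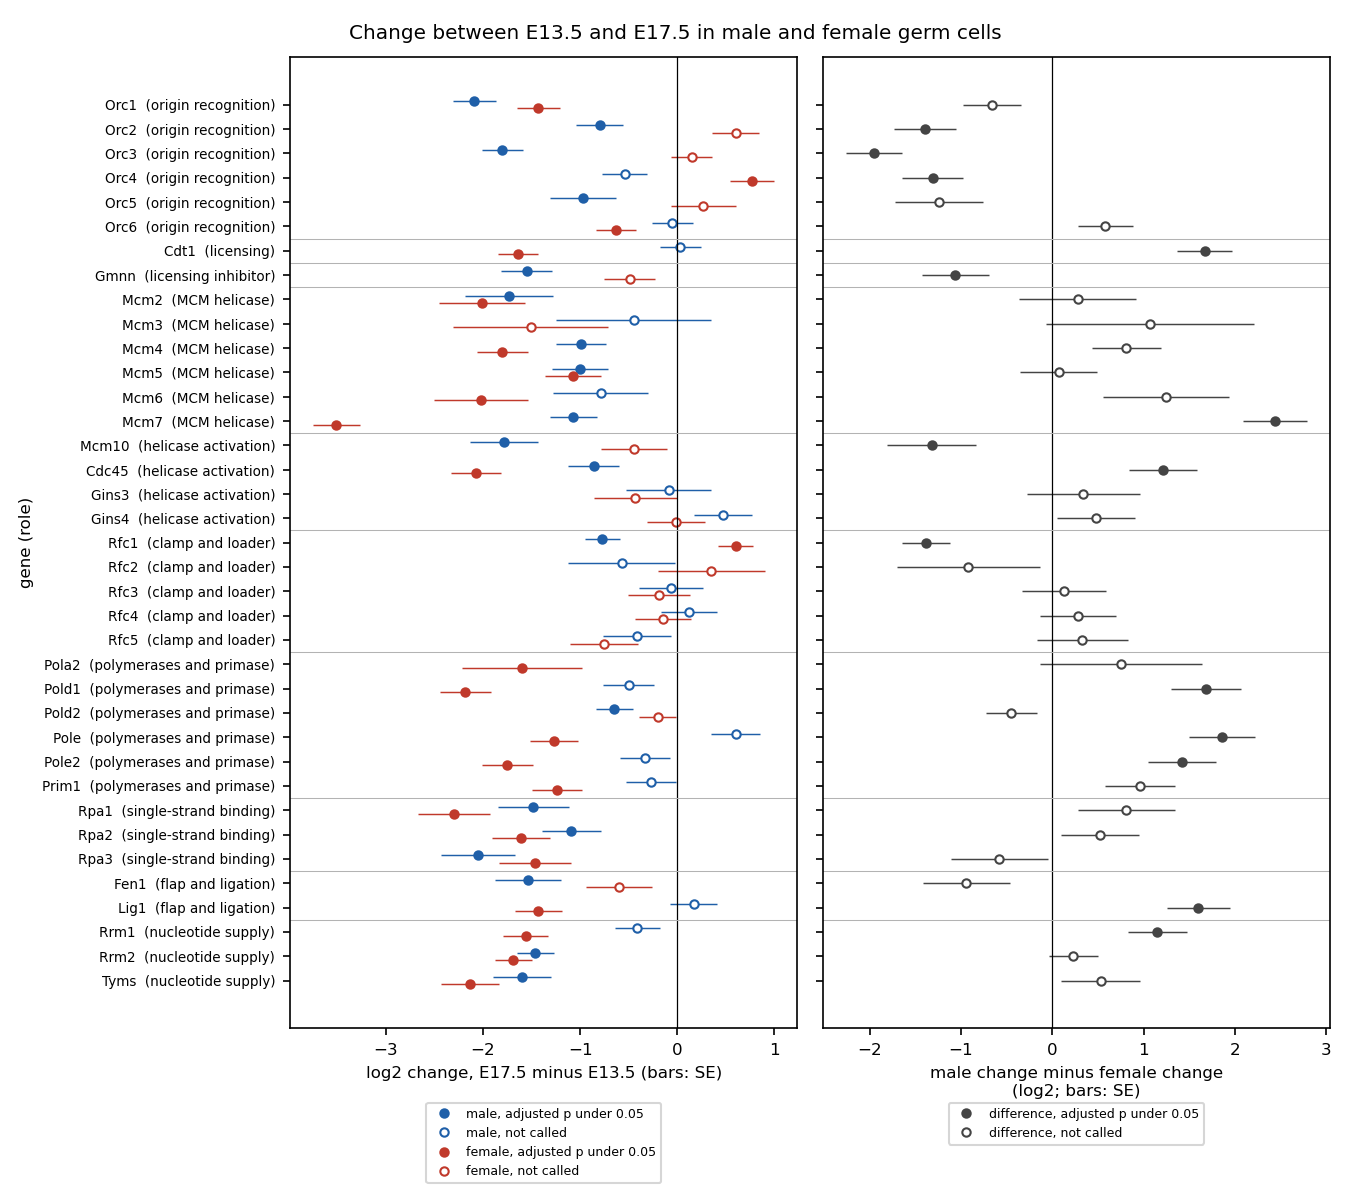
Left, log2 change from E13.5 to E17.5 in male and female PGCs for each gene, with standard errors (n = 2 arrays per group) and filled points for genes past the adjusted p threshold. Right, the male minus the female change, which runs from -1.95 for Orc3 to 2.44 for Mcm7 among the 14 genes that passed.

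Male and female PGCs were set against each other at single stages as well. No test was made at E10.5. At E13.5 males were lower in 5 of 37 genes and higher in none, beside 19.4% of all features (7.28% higher and 12.2% lower). The 5 were Orc1 (-1.18 ± 0.22, adjusted p = 0.0015), Rrm2 (-0.92 ± 0.19, adjusted p = 0.0023), Pold2 (-0.82 ± 0.19), Lig1 (-0.79 ± 0.24) and Cdt1 (-0.68 ± 0.21). The calls of Pold2, Lig1 and Cdt1 were lost without female array 1 or male array 2, each of which left 2 genes, and that of Cdt1 also without female array 2 (adjusted p up to 0.278). At E17.5, 21 of 36 genes passed, with 9 of them higher in males and 12 lower, beside 54.8% of all features (32.1% higher and 22.7% lower), and the median difference was 0.06, against 0.27 over all features. The count is near that of all features. Scaling by all probes gave 6 higher and 15 lower, quantile normalisation 8 higher and 16 lower, and the deposited log2 values 0 higher and 6 lower.

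By role, ORC was lower in E17.5 males for 5 of 6 subunits, with a median difference of -1.81. Orc5 had the largest (-2.14 ± 0.34), followed by Orc3 (-1.95 ± 0.21), Orc1 (-1.84 ± 0.23), Orc2 (-1.79 ± 0.24) and Orc4 (-1.46 ± 0.23). Orc5 stood at -4.42 and -4.80 in male PGCs, against -2.86 and -2.08 in female PGCs, and Orc2 at -3.12 and -2.98 in males, against -1.37 and -1.14 in females. Orc6, which sits loosely on the complex, did not pass, with -0.09 and -0.26 in males, against -0.47 and -0.63 in females. Gmnn (-1.75 ± 0.26), Fen1, the flap nuclease of the lagging strand (-1.36 ± 0.34), Pold2 (-1.27 ± 0.19), Rfc1 (-1.15 ± 0.18) and Rrm2 (-0.69 ± 0.19) were lower in males too. Mcm10 (-0.87 ± 0.35, adjusted p = 0.0429) and Rpa3 (-0.93 ± 0.38, adjusted p = 0.0459) passed narrowly, and Rpa3 did not with the replicate number as a block.

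Mcm7 was 6.01-fold higher in male E17.5 PGCs (2.59 ± 0.25, adjusted p = 4.14e-07). The other 5 MCM subunits did not pass. Of the polymerase genes Pole (1.26 ± 0.25), Pold1 (1.22 ± 0.26) and Pole2 (1.01 ± 0.26) were higher in males, as were Rpa1 (1.29 ± 0.38), Rrm1 (1.15 ± 0.23), Cdt1 (0.99 ± 0.21), the GINS subunit Gins4 (0.82 ± 0.30) and Lig1 (0.81 ± 0.24). Mcm10 and Rpa3 lost their calls without any 1 of the 4 arrays, Gins4 without either female array or male array 2, Rpa1 without female array 1 or male array 2, and Lig1 without female array 2 (adjusted p up to 0.224). Markers of other cells moved with sex and stage. The summed linear level of 4 Sertoli cell markers, all well above background in E17.5 males, was 5.02 in E17.5 males and 0.117 in E17.5 females, and 1.16 in E13.5 males and 0.0292 in E13.5 females. Red blood cell markers summed to 2.01 in E17.5 males and 6.84 in E17.5 females, against 0.421 in E13.5 males and 0.0786 in E13.5 females. The part of these cells in the differences was not tested.

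Spermatogonia and oogonia were compared with the E17.5 PGCs of their sex. Set against E17.5 male PGCs, 9 of 36 genes passed in spermatogonia, 1 higher and 8 lower, beside 19.6% of all features (8.52% higher and 11.1% lower), with a median of -0.36, against -0.11. Lig1 was lower, at 0.37 and 0.47 in spermatogonia, against 1.66 and 1.67 in male E17.5 PGCs (-1.25 ± 0.24, adjusted p = 0.0022), and that call held without any single array. Pold1 (-1.22 ± 0.26), Pole (-1.11 ± 0.25), Rrm1 (-1.03 ± 0.23), Mcm6 (-1.47 ± 0.49), Rfc5 (-1.27 ± 0.35), Mcm5 (-0.97 ± 0.29) and Pole2 (-0.82 ± 0.26) were lower and Rfc1 (0.81 ± 0.18) higher, and each of these 8 lost its call without spermatogonia array 1 (adjusted p from 0.071 to 0.257). The count was 5 without E17.5 male array 1, 3 without E17.5 male array 2 and 1 without spermatogonia array 1, and scaling by all probes gave 2 higher and 4 lower. In oogonia against E17.5 female PGCs 10 of 36 passed, 4 higher and 6 lower, beside 22.5% of all features (6.87% higher and 15.7% lower), with a median of -0.28, against -0.27. Orc1 rose to -0.84 and -0.96 in oogonia, against -2.0 and -1.86 in E17.5 female PGCs (1.03 ± 0.23, adjusted p = 0.00491). The calls of Rpa1 (1.57 ± 0.38), Tyms (1.34 ± 0.30), Mcm3 (-2.31 ± 0.81), Rfc5 (-1.35 ± 0.35), Fen1 (-0.98 ± 0.34), Rpa2 (-0.95 ± 0.30), Cdc45 (-0.84 ± 0.26) and Orc2 (-0.81 ± 0.24) each rested on single arrays (adjusted p up to 0.287). Rpa1 lost its call without oogonia array 2, Tyms without E17.5 female array 2 or oogonia array 1, and the other 6 without E17.5 female array 2 or either oogonia array, each of which left 3 genes, all higher. Scaling by all probes gave 7 higher and 0 lower, and quantile normalisation 4 higher and 2 lower. Rfc1 rose by 0.89 ± 0.19 on its brightest probe and had -1.43 on its second. Sertoli cell markers summed to 0.641 in spermatogonia and 5.02 in E17.5 male PGCs, and red blood cell markers to 0.721 in oogonia and 6.84 in E17.5 female PGCs and to 1.32 in spermatogonia and 2.01 in E17.5 male PGCs. Their part in these changes was not tested. Slide, scan day and cross could not be told apart from the group in both comparisons.

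Between spermatogonia and oogonia 18 of 36 genes differed, 4 higher and 14 lower in spermatogonia, beside 50.5% of all features (32.8% higher and 17.7% lower), with a median of -0.45, against 0.32, so that the count is near that of all features. The genes apart between the sexes at E17.5 were read again on these separate arrays. Mcm7 was at 0.08 and 0.02 in spermatogonia, against -3.05 and -2.73 in oogonia, a 7.65-fold difference (2.94 ± 0.25, adjusted p = 1.16e-07). Cdt1 (0.79 ± 0.21) and Pole (0.85 ± 0.26) were higher in spermatogonia as well, and Cdc45 was so by 1.48 ± 0.27. ORC was lower in spermatogonia for 5 of 6 subunits, among them Orc1 (-2.30 ± 0.23, adjusted p = 6.55e-07), Orc2 (-1.02 ± 0.24) and Orc3 (-0.97 ± 0.22). Gmnn stood at 0.17 and -0.03 in spermatogonia, against 2.12 and 1.91 in oogonia (-1.94 ± 0.27). The clamp loader was lower for 4 of 5 subunits, Rfc1, Rfc2, Rfc3 and Rfc4, but the second Rfc1 probe had 1.32 where the first had -1.23. Pold2 (-1.13 ± 0.20), Tyms (-1.18 ± 0.31), Mcm5 (-1.0 ± 0.30) and Rrm2 (-0.93 ± 0.19) were lower too, Rrm2 with 0.27 on a second probe. Of the other genes that were higher in males at E17.5, none passed here: Gins4 had 0.40, Pold1 0.26, Lig1 0.24, Pole2 -0.11, Rrm1 -0.19 and Rpa1 -0.52, so that the last 3 had the opposite sign. Of the 18 calls, 9 held without any single array. Without oogonia array 2, where 10 genes passed, Cdt1, Mcm5, Orc4, Orc5, Pole, Rfc2, Rfc3 and Rfc4 lost theirs, and Tyms lost its call without oogonia array 1 (adjusted p up to 0.117). Without spermatogonia array 1 Mcm5, Orc5, Pole, Rfc2, Rfc3 and Rfc4 lost theirs (up to 0.126), and without spermatogonia array 2 Cdt1, Orc5, Pole, Rfc3 and Rfc4 (up to 0.115). Orc5, Rfc2, Rfc3 and Rfc4 lost theirs without oogonia array 1 too (up to 0.106). Scaling by all probes gave 2 higher and 21 lower, and the deposited log2 values 0 higher and 16 lower, so that of the higher genes Cdt1 and Pole changed sign there, to -0.42 and -0.36. Each group was on its own slide and scan day, so slide, scan day and group cannot be told apart. Sertoli cell markers summed to 0.641 in spermatogonia and 0.0996 in oogonia, a difference whose part was not tested.

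GS cells, which divide in culture, were set against spermatogonia and against adult testis, most of whose cells are past their last replication. Against spermatogonia, 13 of 37 genes were higher in GS cells and none lower, beside 25.5% of all features (12% higher and 13.5% lower), with a median of 0.79, against 0.02. Nucleotide supply was higher for 3 of 3 genes. Rrm2 stood at -1.65 and -1.08 in GS cells, against -3.32 and -3.25 in spermatogonia (1.91 ± 0.21, adjusted p = 1.22e-05), Rrm1 was higher by 1.81 ± 0.25 and Tyms by 1.75 ± 0.32. Orc1 was at -1.54 and -0.71 in GS cells, against -3.17 and -3.23 in spermatogonia (2.07 ± 0.25, adjusted p = 2.46e-05). Clamp loader subunits Rfc2 (1.95 ± 0.56), Rfc3 (1.70 ± 0.34) and Rfc5 (1.61 ± 0.37), the helicase subunits Mcm2 (2.07 ± 0.46) and Mcm5 (1.45 ± 0.31), Fen1 (1.57 ± 0.35), Pole2 (1.41 ± 0.28), Gmnn (0.93 ± 0.28) and Pold1 (0.82 ± 0.28) were higher too. Cdt1 did not pass and its arrays overlapped, at 1.02 and 1.67 in GS cells, against 1.29 and 1.58 in spermatogonia. Mcm7, at -0.08 and 1.00 in GS cells, against 0.08 and 0.02 in spermatogonia, did not pass either. The count depended on single GS arrays. Without GS array 1 21 genes passed, and without GS array 2 only 8 did, 7 higher and 1 lower, when Fen1, Gmnn, Mcm2, Pold1, Rfc2 and Rfc5 lost their calls (adjusted p up to 0.453). Gmnn and Pold1 also lost theirs without either spermatogonia array, and Rfc2 and Rfc5 without spermatogonia array 1 (up to 0.192). Markers of fibroblasts, used as feeders, summed to 5.08 in GS cells and 1.05 in spermatogonia, and their part was not tested. GS cells and spermatogonia differed in slide, scan day and strain, which cannot be told apart from the group.

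Against testis, 25 of 37 genes passed, 22 higher and 3 lower in GS cells, beside 47.3% of all features (20.1% higher and 27.2% lower), with a median of 1.11, against -0.15. Cdt1 had the largest difference of any comparison made here among the 37 genes, at 1.02 and 1.67 in GS cells, against -2.58 and -2.81 in testis (4.04 ± 0.24, adjusted p = 4.14e-09). The MCM helicase was higher for 5 of 6 subunits, with Mcm2 at 3.78 ± 0.47, Mcm4 at 3.16 ± 0.29, Mcm6 at 2.83 ± 0.50, Mcm3 at 2.58 ± 0.82 and Mcm5 at 2.28 ± 0.32. Mcm7 was the exception, at -0.08 and 1.00 in GS cells, against 0.27 and 0.26 in testis, with overlapping arrays. Tyms (3.40 ± 0.33), Orc1 (3.35 ± 0.26), Rfc5 (2.89 ± 0.38) and Prim1 (2.43 ± 0.29) were higher, as were Lig1 (2.05 ± 0.27) and Rrm2 (1.99 ± 0.22). Lower in GS cells were Rpa1, at -3.02 and -1.46, against -0.12 and 0.03 in testis (-2.20 ± 0.40, adjusted p = 0.000241), Rfc2 (-1.89 ± 0.57) and Orc5 (-1.31 ± 0.36). Without GS array 2 the calls of Cdc45, Gins3, Mcm3, Orc6, Pole, Rfc3 and Rpa3 were lost (adjusted p up to 0.457), all of them but that of Rpa3 also without testis array 1 (up to 0.149). Rfc2 lost its call without GS array 1 or either testis array, and Orc5 without GS array 1, and the deposited log2 values gave 18 higher and 0 lower. In testis, spermatid markers summed to 26.4, spermatocyte markers to 12.9 and Sertoli cell markers to 9.49, and their part in the levels was not tested. The arrays of GS cells and testis shared a slide, but their strains differed and cannot be told apart from the group.

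**Figure D4:**
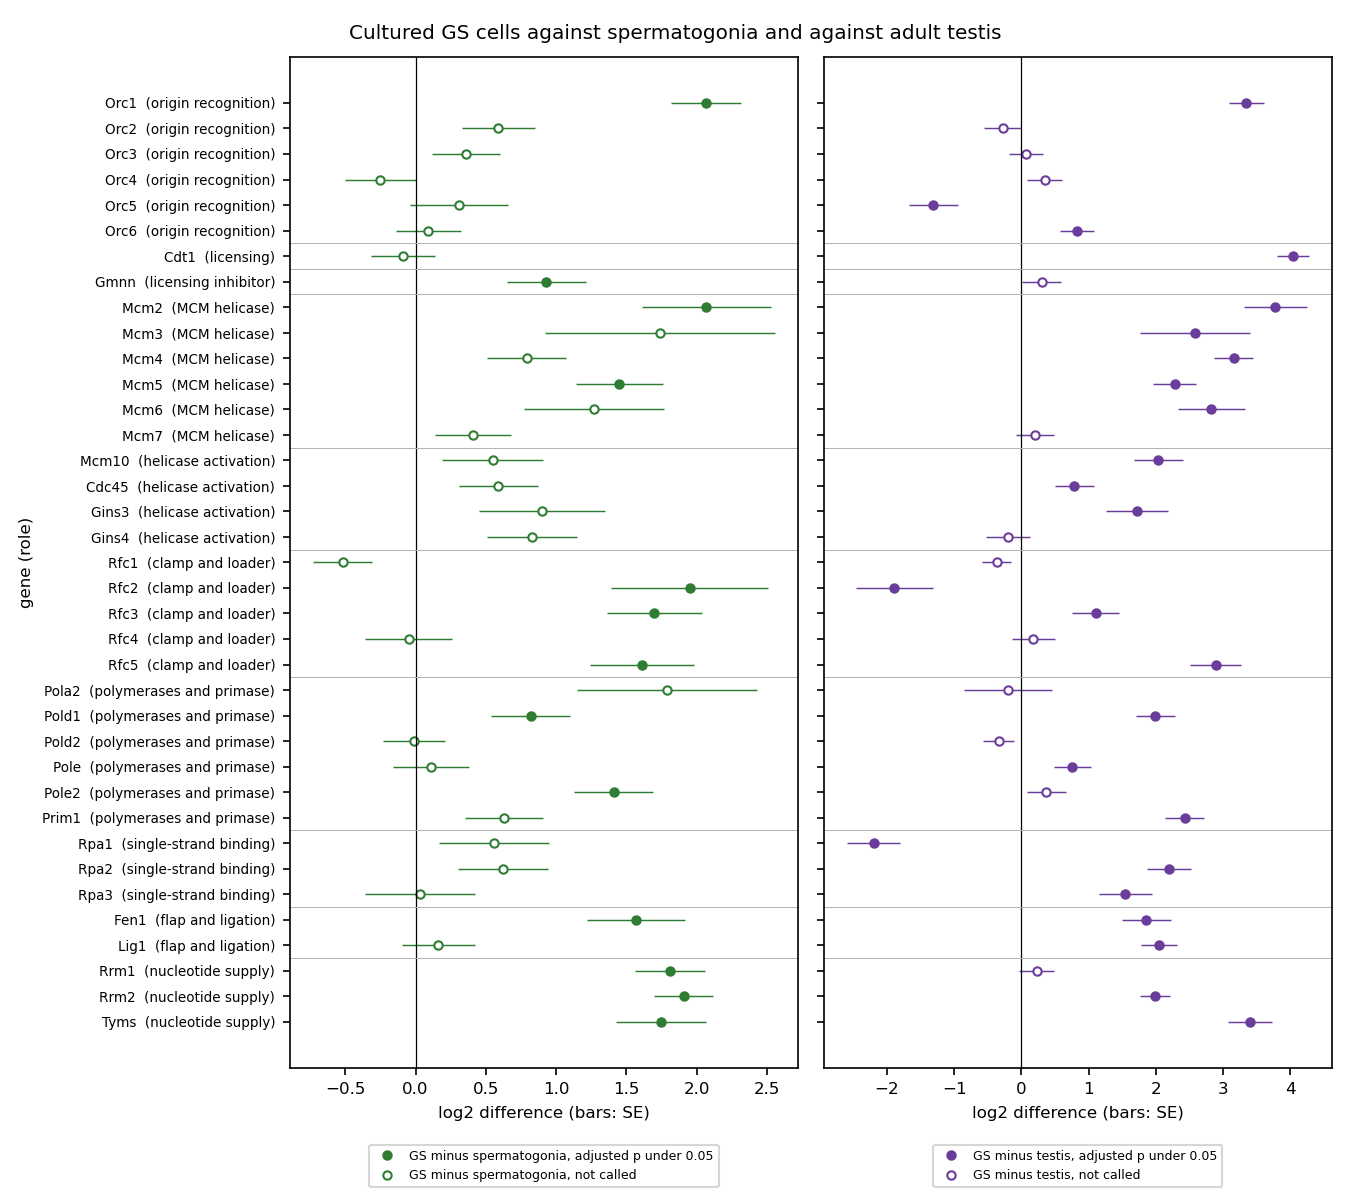
Log2 difference of GS cells minus spermatogonia (left) and GS cells minus testis (right) for each gene, with standard errors (n = 2 arrays per group) and filled points for genes past the adjusted p threshold. Most genes are above 0 in both panels, Cdt1 is at -0.09 on the left and 4.04 on the right, and Rpa1, Rfc2 and Orc5 are below 0 on the right.

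EG cells were set against PGCs of E13.5 and against ES cells, with 2 male and 2 female arrays on each side. Against E13.5 PGCs, 22 of 37 genes differed, 13 higher and 9 lower in EG cells, beside 43.2% of all features (18.5% higher and 24.7% lower), with a median of 0.11, against -0.19. Nucleotide supply was higher for 3 of 3 genes. Rrm2 stood at 0.79 and 0.78 in male EG cells and 1.01 and 1.24 in female EG cells, against -1.40 and -1.17 in male and -0.39 and -0.33 in female E13.5 PGCs (1.78 ± 0.14, adjusted p = 6.79e-08). ORC was split, with Orc1 (1.1 ± 0.17), Orc6 (1.02 ± 0.16), Orc5 (0.76 ± 0.24) and Orc2 (0.67 ± 0.18) higher and Orc3 (-1.08 ± 0.16) and Orc4 (-0.51 ± 0.17) lower. Polymerase epsilon was split too: its catalytic subunit Pole was at -0.74 and -0.94 in male and -0.70 and -0.57 in female EG cells, against 0.49 and 0.29 in male and 0.94 and 1.05 in female E13.5 PGCs (-1.43 ± 0.19, adjusted p = 1.14e-05). Its partner Pole2 was higher in EG cells by 1.54 ± 0.19 (adjusted p = 7.46e-06). For polymerase delta, the catalytic Pold1 was lower (-1.26 ± 0.19) and Pold2 higher (0.71 ± 0.15).

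Rpa2 (-1.32 ± 0.22), Cdc45 (-1.02 ± 0.19), Rfc4 (-0.95 ± 0.21) and Lig1 (-0.87 ± 0.18) were lower in EG cells, and Gins4 (1.15 ± 0.22), Tyms (1.00 ± 0.22) and Cdt1 (0.76 ± 0.16) higher. None of the 6 MCM subunits passed, with a median of -0.21 over them. The calls of Orc4, Rfc3, Rfc5, Rpa3 and Rrm1 were lost without female EG array 1 or male EG array 1, most of them also without other arrays, and that of Orc5 without EG array 2 of either sex or female E13.5 array 1 (adjusted p up to 0.147). The median signal with normexp correction gave 11 higher and 12 lower, and the deposited log2 values 7 higher and 0 lower, with Orc4 at 0.15 there. EG cells and PGCs differed in slide, scan day and strain, and none of these can be told apart from the group. Against ES cells, 0 of 37 genes passed in limma, beside 7.06% of all features (4.8% higher and 2.26% lower), with a median of -0.08, against 0.09, and 3 had an unadjusted p under 0.05. The largest differences were those of Pola2 (-1.21, adjusted p = 0.12), Pole2 (-0.54, adjusted p = 0.105), Mcm3 (-0.48, adjusted p = 0.685) and Pold2 (-0.43, adjusted p = 0.0936). A fit of only these groups called 4 genes lower in EG cells. Fibroblast markers summed to 0.892 in male and 0.104 in female EG cells, against 0.236 in male and 1.80 in female ES cells. EG and ES cells differed in slide, scan day and strain too, and these cannot be told apart from the group.

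**Figure D5:**
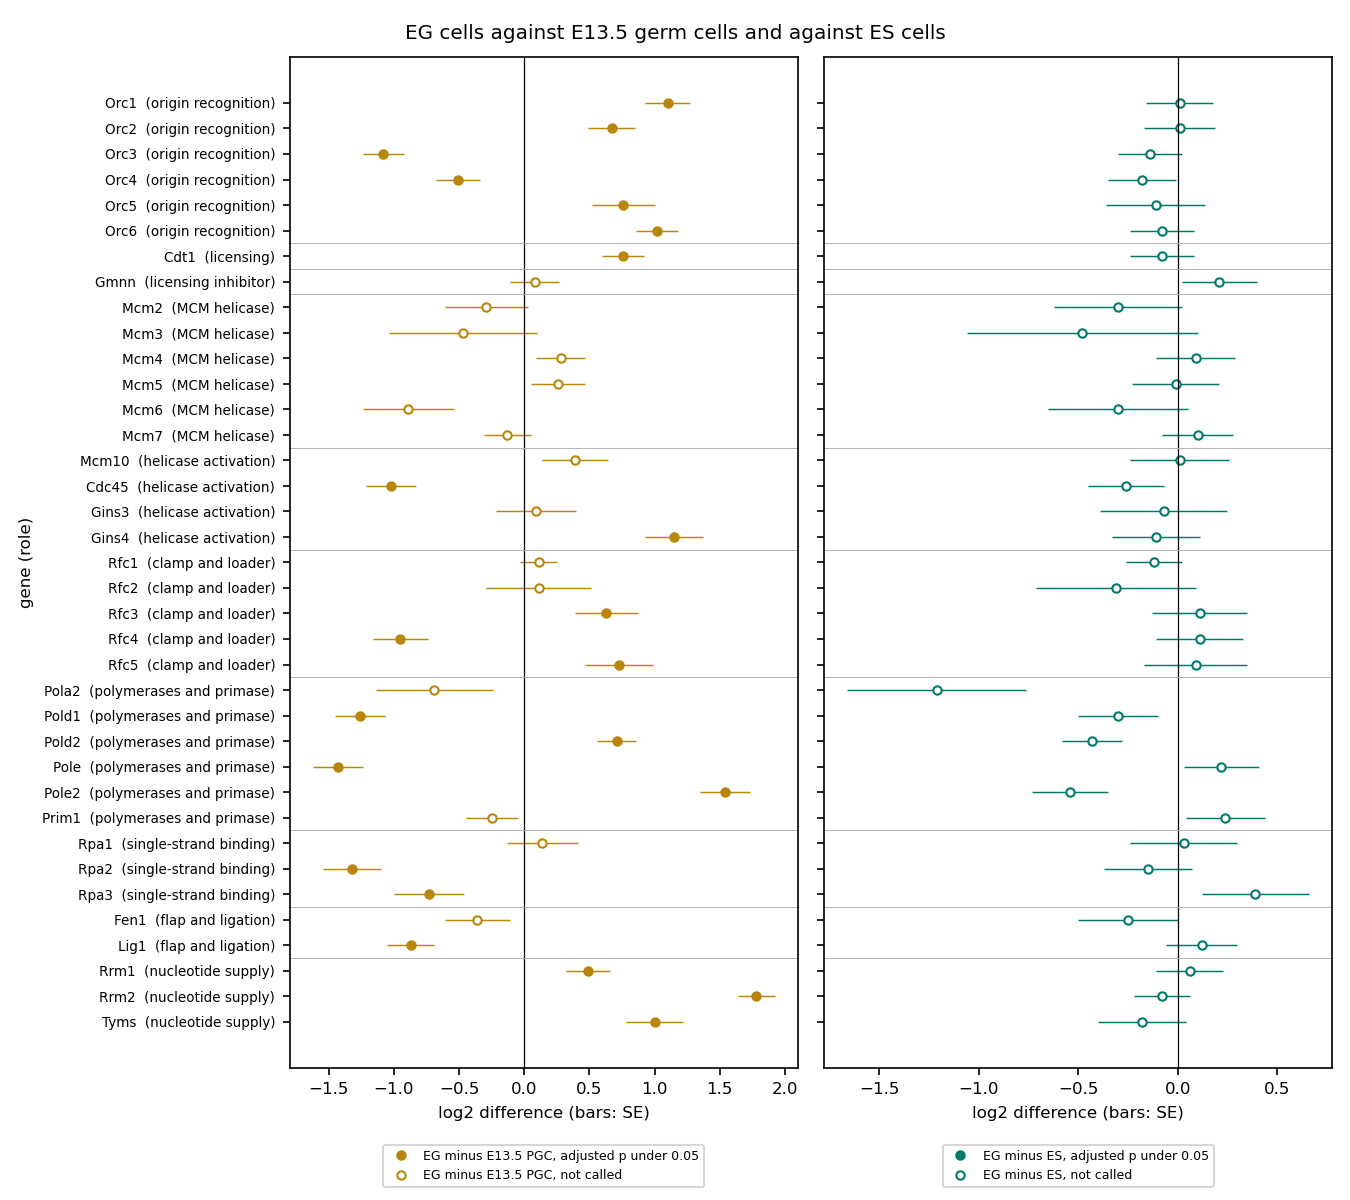
Log2 difference of EG cells minus E13.5 PGCs (left) and EG cells minus ES cells (right) for each gene, both sexes together, with standard errors (n = 4 arrays per side) and filled points for genes past the adjusted p threshold. The left panel runs from -1.43 for Pole to 1.78 for Rrm2, and on the right no point is filled.

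Other genes of the cell cycle, from lists written from textbook roles, were read in the same fits. Of 45 further replication factors, 35 were tested from E13.5 to E17.5. In females 1 was higher and 16 lower (beside 22.7% and 17.5% of all features), among them the nucleotide enzymes Dut (-2.21 ± 0.25) and Tk1 (-2.03 ± 0.32), and in males 1 was higher and 19 lower (beside 33.2% and 14.9%), among them the clamp loader factor Chtf18 (-2.59 ± 0.26) and the nuclease-helicase Dna2 (-2.25 ± 0.22). Beside the same shares, mitosis genes were lower for 16 of 20 in males, with the cyclin Ccnb2 at -2.66 ± 0.37, and for 11 of 20 in females, with Ccnb1 at -3.33 ± 0.33 and the topoisomerase Top2a at -2.84 ± 0.60. Between the sexes at E17.5, 17 of the 35 further replication factors were lower and 4 higher in males, beside 22.7% of all features lower and 32.1% higher. Uhrf1, which reads hemimethylated DNA at forks, was lower (-2.37 ± 0.37), and so was Topbp1, which helps assemble the helicase (-2.19 ± 0.33), while Rnaseh2a, a subunit of the RNase that removes ribonucleotides, was higher (1.82 ± 0.36). In spermatogonia 17 of 20 mitosis genes were lower than in E17.5 male PGCs and none higher (beside 11.1% and 8.52% of all features), with Top2a at -3.33 ± 0.61 and the kinase Cdk1 at -2.73 ± 0.48. In GS cells 17 of 20 were higher than in spermatogonia and none lower (beside 12% and 13.5% of all features), with Top2a at 3.97 ± 0.62 and Cdk1 at 2.94 ± 0.49, beside 9 of 35 further replication factors higher and none lower.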

How the data were processed

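Gene expression was measured on 28 single-colour Agilent arrays in 14 groups of 2, grouped by the labels. Per the file headers, and the submitters' processing notes, the scans were read out by Agilent Feature Extraction 10.5.1.1. RNA was purified by column or Trizol from small numbers of cells and labelled with Cy3 by the Quick Amp method, per the labels' protocols. The deposited processed signal is a background-subtracted intensity on a linear scale. The authors' deposited value table holds log2 values. Each column matched log2 processed signal minus that array's median within 0.00252 (its own median lay between -7.34e-05 and 0.00251), and the table served as an alternative.

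The computing environment was R (4.3.3), with limma (3.58.1) for the fits and data.table (1.17.8) for joins. First, 1417 control spots and 514 of the other 43803 probes, marked non-uniform, were removed. On 16 arrays fewer than 50% of probes were above background by the scanner's flag, so each array was scaled to its 75th percentile over the 7227 probes with that flag on every array. A feature was tested if 1 or more of the groups compared had the flag on both arrays. All 14 groups entered a single fit with 14 residual degrees of freedom, and p-values were adjusted over all features tested. Genes past an adjusted p of 0.05 are called. The lowest signal well above background lay between -10.72 and -3.58, and precision is limited by the number of arrays. The steps were tested on simulated data.

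The members and lists were chosen with earlier results of these data known. Genes named in the text are members, and from the other lists those with the largest called changes. Symbols and promoters came from RefSeq tables (GRCm38.p6). PGC arrays of the same replicate number shared a scan day, and their differences between replicates correlated with r from 0.31 to 0.80 (15 of 15 pairs over 0.1). In other groups r lay between -0.18 and 0.25, so numbers were taken to pair PGC samples only. The main fits held no term for this pairing. The replicate block, an alternative, was set over all groups, including those whose numbers do not pair. Alternatives were other scalings, normexp (offset 50) on the median signal, other probe rules and filters, slide and scan day terms, and leaving out each array. Normexp on the mean signal was not run, because the files used hold no such column, and the version on the median signal was chosen after seeing the data.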

Additional observations from a re-analysis of the deposited data

Results flagged for a closer look

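The change from E13.5 to E17.5 differed between male and female PGCs for 14 of 37 genes, by the limma test of the difference itself (Benjamini-Hochberg adjusted over all features tested, n = 2 arrays per group). With 32.4% of all features called in that test, the count is near the background and says nothing particular to these genes. The male minus female difference was 2.44 for Mcm7 (changes of -1.07 in males, -3.51 in females), 1.86 for Pole (0.60 in males, -1.27 in females), 1.68 for Pold1 (-0.50 in males, -2.18 in females), 1.67 for Cdt1 (0.03 in males, -1.64 in females), 1.60 for Lig1 (0.17 in males, -1.43 in females), 1.42 for Pole2 (-0.33 in males, -1.75 in females), 1.21 for Cdc45 (-0.86 in males, -2.07 in females) and 1.15 for Rrm1 (-0.41 in males, -1.56 in females). It was -1.95 for Orc3 (-1.80 in males, 0.15 in females), -1.39 for Orc2 (-0.80 in males, 0.60 in females), -1.38 for Rfc1 (-0.77 in males, 0.60 in females), -1.32 for Mcm10 (-1.78 in males, -0.45 in females), -1.31 for Orc4 (-0.54 in males, 0.77 in females) and -1.06 for Gmnn (-1.55 in males, -0.49 in females). Orc3, Rfc1, Cdt1, Lig1, Mcm7, Pold1 and Pole kept their calls under every alternative run except the deposited log2 values, under which 0 genes passed. For Rfc1 this holds for its brightest probe and the mean of its probes. Its second probe had changes of 0.08 in males and 0.52 in females. The r of both Rfc1 probes over the 14 groups was -0.205, and which of them reports the gene is not settled. No group had over 2 arrays, so no single array could be tested for standing apart from its group.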

How the results depend on the processing

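Of 196 calls over the 14 comparisons, 115 held without any single array, 85 under every alternative other than the deposited log2 values, and 52 under the deposited values. Of 3085 gene values under alternatives, 2444 kept direction and side of the threshold, 634 kept direction only and 7 changed sign. With the deposited values, Cdt1 was at -0.42 and Pole at -0.36 in spermatogonia against oogonia, Orc2 at 0 in oogonia against E17.5 PGCs, and Orc4 at 0.15 in EG cells against E13.5 PGCs. Pola2 was at 0.02 with normexp from E13.5 to E17.5 in females, and Rfc1, as the mean of its probes, at -0.27 in oogonia against E17.5 PGCs and 0.04 in spermatogonia against oogonia. The deposited values differ from the levels used here by a constant for each array, so the sign changes under them follow from the scaling. The cause of those of Pola2 and Rfc1 was not tested.

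With the deposited values 0 genes passed from E10.5 to E13.5 in either sex, between the sexes at E13.5, in the difference of sexes over stage, in spermatogonia or oogonia against E17.5 PGCs, and in GS cells against spermatogonia. Under them 5 genes passed from E13.5 to E17.5 in females, 2 in males, 6 between the sexes at E17.5 and 7 in EG cells against E13.5 PGCs. With no filter on dim probes 3 passed from E10.5 to E13.5 in females, 1 in males, 1 between the sexes at E13.5, 8 over sex and stage, 2 in spermatogonia and 5 (4 higher, 1 lower) in oogonia. With normexp 4 passed from E10.5 to E13.5 in males, 2 between the sexes at E13.5, 7 over sex and stage and 23 in EG cells against E13.5 PGCs. Fitting only the groups compared gave 1 from E10.5 to E13.5 in females and 0 in males, 12 from E13.5 to E17.5 in males, 0 between the sexes at E13.5, 3 in oogonia, 6 in GS cells against spermatogonia and 4 in EG against ES cells. Scaling by all probes gave 3 between the sexes at E13.5, 12 over sex and stage (5 higher, 7 lower) and 7 in oogonia, where quantile normalisation gave 6. Slide as a block gave 15 from E10.5 to E13.5 in females and 8 between the sexes at E13.5, where scan day gave 9. Slide as a random block (correlation 0.377) gave 9 there, 14 in EG cells against E13.5 PGCs, 5 in spermatogonia and 5 in oogonia. The cause was not tested.

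Leaving out single arrays gave 5 to 11 genes from E10.5 to E13.5 in females and 3 to 10 in males, 17 to 20 from E13.5 to E17.5 in females and 14 to 17 in males, 2 to 6 between the sexes at E13.5, 17 to 19 at E17.5, 10 to 13 over sex and stage, 1 to 6 in spermatogonia, 3 to 9 in oogonia, 10 to 13 between these, 17 to 21 in EG cells against E13.5 PGCs, 0 against ES cells, 8 to 21 in GS cells against spermatogonia and 18 to 24 against testis. The replicate block, set over all groups though numbers were taken to pair PGC samples only, kept 194 of 196 calls. The exceptions were Pola2 from E13.5 to E17.5 in females and Rpa3 between the sexes at E17.5. With that block, genes that passed numbered 10 from E10.5 to E13.5 in females and 9 in males, 23 from E13.5 to E17.5 in females and 20 in males, 7 between the sexes at E13.5 and 22 at E17.5, and 16 over sex and stage. Signal over background limits Pola2 most, measured on 18 of 28 arrays, and 2 arrays a group limit all values.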

Other observations

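The 14 group means of 3795 candidate genes were set against the median profile of the 37 replication genes by Pearson's r. Candidates were named genes well above background on all 28 arrays. The replication genes and all genes of the other cell cycle, meiosis and repair lists were left out beforehand, so they were not ranked here. Among the candidates the highest r were those of Nutf2 (0.937), a nuclear import factor of Ran, Actn4 (0.936), an actin crosslinker, and Snrnp70 (0.926), a protein of the U1 splicing particle. Pmf1 (0.925), a kinetochore protein, and Sephs1 (0.922) followed. The points share arrays and scaling, and no test was made. E2F and Rb network genes were read in the same way. In females from E13.5 to E17.5, 2 of 22 tested were higher and 11 lower, beside 22.7% higher and 17.5% lower of all features. In males from E13.5 to E17.5, 7 of 24 tested were higher and 7 lower, beside 33.2% higher and 14.9% lower of all features, and between the sexes at E17.5, 7 of 24 were higher and 3 lower in males, beside 32.1% higher and 22.7% lower. Among them the cyclin D2 gene Ccnd2 was higher at E17.5 in males (3.73 ± 0.48) and higher in E17.5 males than females (3.24 ± 0.48), and E2f5 was lower in E17.5 males than females (-3.34 ± 0.22).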
